A study of Homo sapiens with 12 samples.

Results

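The genes described here are 53 genes of human chromosome 18, listed from the tip of the short (p) arm to the end of the long (q) arm, out of 28278 genes in the count table. They were taken because the median difference of chromosome 18 between HRG1-KO and WT cells lay below 0, so the KO against WT values of these genes are given as a description, without p-values. Of the 53 genes, 19 lie on the p arm and 34 on the q arm, and 51 had enough counts to be tested, the 2 left out being OSBPL1A and SETBP1 on the q arm. Although the genes were listed as lower in KO, 9 of the 51 lay above 0 both in untreated and in treated cells, where 41.6% of all genes tested did.

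Chromosome 18 carries few genes for its length, and its long arm holds SMAD2, SMAD4 and SMAD7, which relay or block signals of the TGF-beta family. Genes along a chromosome are switched on and off separately, yet they share its copy number, which differs between and within many leukaemia lines and was not measured here. K562, a human erythroleukaemia line, makes embryonic and fetal globins, more so when exposed to sodium butyrate, a histone deacetylase inhibitor.

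RNA was sequenced from 4 groups of 3 libraries: WT K562 cells left untreated, WT cells given 0.75 mM sodium butyrate, HRG1-KO K562 cells left untreated, and HRG1-KO cells given the same butyrate. HRG1, encoded by SLC48A1, carries heme across membranes. Butyrate was added 24 h after plating and again 48 h later, cells were collected 6 h after that second dose, and the design text places the samples at day 8. The number of KO clones, how the knockout was made and whether libraries of a group came from separate cultures are not stated, so p-values measure the spread between these libraries, and the genotype and the clone of origin cannot be told apart.

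Library totals ran from 19963594 to 30348538 counts, and 15805 genes of all chromosomes were tested. Levels are in CPM, counts scaled by the effective size of each library, and differences are log2 fold changes, so that a value of 0 means equal levels. SLC48A1 itself was at 73.5, 82.2 and 65.4 CPM in untreated WT and 2.94, 8.32 and 6.55 CPM in untreated KO, and every KO library lay below every WT library under butyrate too. All 10 erythroid markers were detected, with a summed level of 8415 to 18383 CPM without butyrate and 26728 to 64274 CPM with it in WT, and of 3882 to 6845 and 4862 to 7453 CPM in KO. Markers of endothelial cells summed to 5.44 to 11.6 CPM in WT and 0 to 3.40 CPM in KO libraries, nearly all PECAM1. Markers of T cells summed to 5.65 to 15.8 CPM in WT and 1.27 to 5.58 CPM in KO libraries, of which CD3D was at 5.65 to 15.5 CPM in WT and 0 to 1.10 CPM in KO and CD3E, the other way, at 0 to 0.186 CPM in WT and 1.003 to 3.63 CPM in KO. CD8A, MS4A1 and CDH5 were at or near 0, and the fibroblast markers, nearly all of it COL1A1, were at most 5.02 CPM without and at least 43.9 CPM with butyrate in both genotypes. The part of these shifts in the values below was not tested.

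The promoters of NAPG and IMPACT, the lowest and the highest of the listed genes in KO, are shown because they mark the span of the differences. Each holds the 250 bases before and the 50 bases after the annotated start on the plus strand (RefSeq, GRCh38.p14), at chr18:10525777-10526076 for NAPG and chr18:24426420-24426719 for IMPACT, with CG dinucleotides in capitals.
NAPG: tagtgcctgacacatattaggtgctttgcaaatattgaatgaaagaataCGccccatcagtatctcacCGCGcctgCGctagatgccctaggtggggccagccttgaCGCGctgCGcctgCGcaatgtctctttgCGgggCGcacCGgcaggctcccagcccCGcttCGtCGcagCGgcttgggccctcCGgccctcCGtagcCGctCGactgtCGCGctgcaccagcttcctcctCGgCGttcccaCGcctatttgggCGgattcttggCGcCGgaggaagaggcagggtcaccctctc
IMPACT: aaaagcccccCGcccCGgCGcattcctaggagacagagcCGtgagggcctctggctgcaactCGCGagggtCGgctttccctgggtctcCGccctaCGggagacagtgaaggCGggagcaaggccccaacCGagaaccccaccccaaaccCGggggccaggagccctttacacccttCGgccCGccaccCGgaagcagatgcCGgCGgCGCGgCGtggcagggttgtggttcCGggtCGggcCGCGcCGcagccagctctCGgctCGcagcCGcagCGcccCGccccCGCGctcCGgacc
The NAPG window holds 27 CG dinucleotides and the IMPACT window 33, and 27.9% and 16.9% of all 27305 promoters of the same 300 bases hold at least as many. Promoters were found for 50 of the 53 genes, all but RAB12, ESCO1 and TRAPPC8. The median number of CG was 34.5 over 18 p arm promoters and 29 over 32 q arm promoters, against 14 over all promoters, and at least 20 were present in 14 of the 18, in 28 of the 32 and in 41.2% of all. CG-rich promoters were thus common on both arms. The set of all promoters was taken regardless of expression or gene type, while the listed genes all code for proteins and most were tested. The sets are therefore unlike, and the difference is not shown to be a trait of chromosome 18. The letters of both printed promoters describe the reference genome, not the methylation of these cells.

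The shift along the chromosome was not uniform. On the p arm all 19 genes lay below 0 in both comparisons of KO with WT, with a median of -1.06 in untreated cells (range -2.03 to -0.18) and -1.02 in treated cells (range -1.99 to -0.28), which correspond to 0.481 and 0.494 of the WT level. On the q arm 20 of 32 tested genes lay below 0 in untreated and 23 of 32 in treated cells, with medians of -0.34 and -0.56, ranges of -1.19 to 5.31 and -1.70 to 5.30, and 0.792 and 0.680 of the WT level. The median over all 15805 genes was 0.02 untreated and -0.0022 treated, with 48.9% and 50.1% of genes below 0. Below 0 in both comparisons were 39 of the 51 genes, where 40.6% of all genes tested were so.

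**Figure D1:**
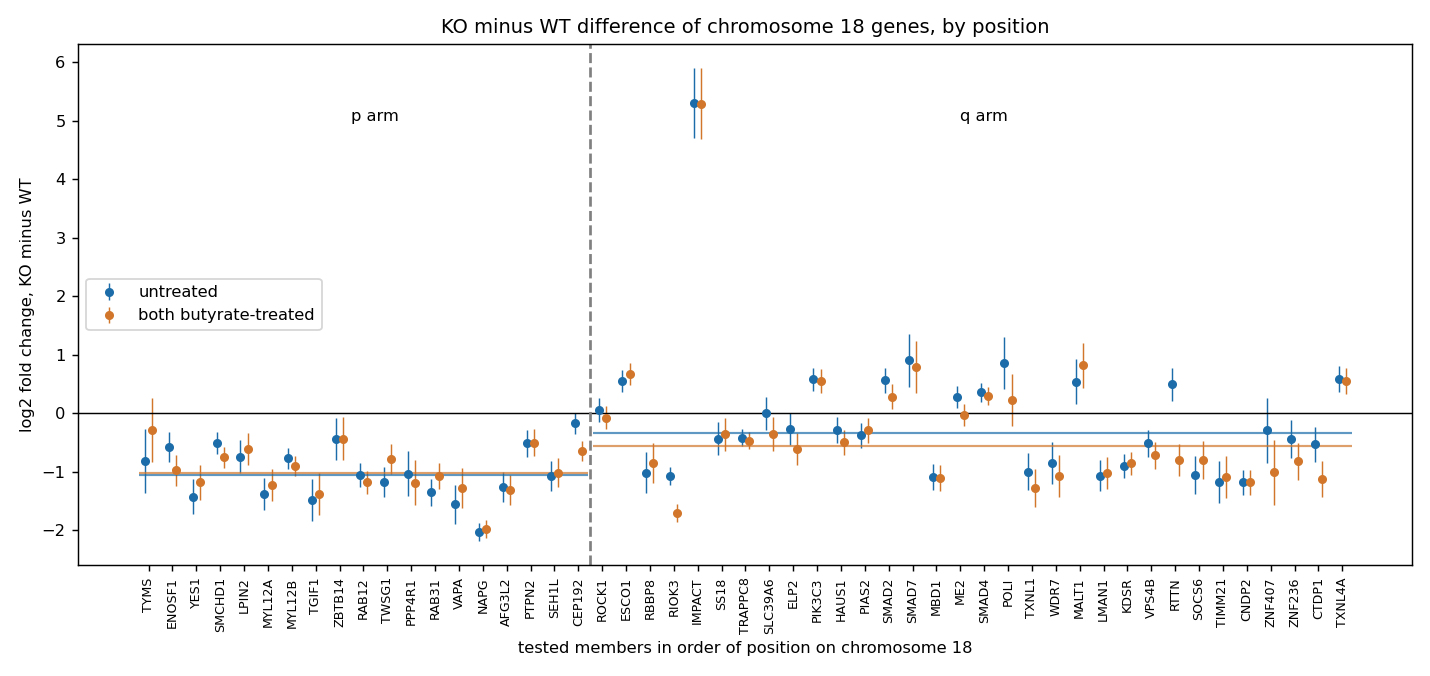
Log2 fold change of KO minus WT (y axis) for the 51 tested genes in order of position on chromosome 18 (x axis), in untreated (blue) and butyrate-treated (orange) cells. Points are fitted values with their standard errors, short horizontal lines are arm medians and the dashed line parts the arms. All 19 p arm genes lie below 0, while the q arm genes fall on both sides and IMPACT stands at 5.31 and 5.30.

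Single libraries, which hold the same contrast that chose the genes, gave the same picture as a description. For each gene the log2 level in a library was set against the mean of the WT libraries of the same treatment. The median over the arm was then taken, so the WT values lie around 0 by construction. The p arm stood at -0.03 ± 0.04 (SD, n = 3) in untreated WT and -0.99 ± 0.04 in untreated KO, and at 0.0002 ± 0.23 and -0.89 ± 0.15 in the treated groups. The 2 genotypes did not overlap on either arm. On the q arm the untreated KO libraries stood at -0.34 ± 0.03 and the treated KO libraries at -0.54 ± 0.09, and the WT libraries at -0.03 ± 0.04 and 0.02 ± 0.18. The median over the pooled genes of other chromosomes lay within 0.06 of 0 in all 12 libraries. Single chromosomes differed, with KO minus WT medians in untreated cells of -0.78 for chromosome 7 and 0.94 for chromosome 13. Replicate 1 of treated WT was the highest WT library on both arms, at 0.26 on the p arm and 0.23 on the q arm.

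**Figure D2:**
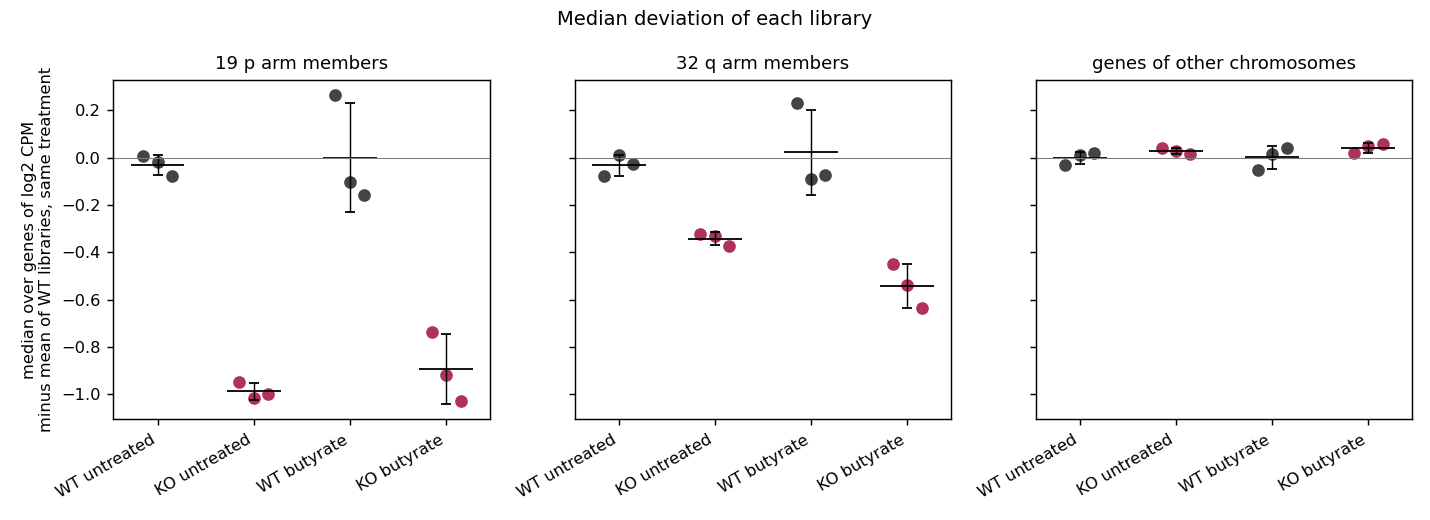
Median over genes of the log2 CPM minus the mean of the WT libraries of the same treatment (y axis), for each library (points) of the 4 groups (x axis), with the group mean and SD (lines, n = 3). The panels hold the 19 p arm genes, the 32 q arm genes and the genes of other chromosomes. KO libraries lie between -1.03 and -0.74 on the p arm and between -0.64 and -0.32 on the q arm. Their median over the pooled genes of other chromosomes lies near 0, and single chromosomes are not shown.

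Comparing KO and WT libraries of the same replicate number gave p arm medians of -1.05, -1.05 and -1.01 untreated and -1.13, -0.88 and -0.99 treated. The q arm medians were -0.34, -0.29 and -0.41 untreated and -0.52, -0.37 and -0.69 treated. In each of the 6 pairs the p arm was the lower of the arms. A running median over 9 neighbouring genes stayed between -1.27 and -0.78 in untreated cells for every window within the p arm. It was higher past the centromere, reached 0.36 untreated and 0.23 treated in the windows PIK3C3 to POLI and SMAD2 to MALT1, and lay between -0.91 and -0.52 in every untreated window from MBD1 to KDSR onwards. By segment, the 10 tested genes of q11-q12 had medians of -0.14 untreated and -0.36 treated. The 14 genes of q21 had -0.34 and -0.40, and the 8 genes of q22-q23 -0.49 and -0.92. The high windows, which lie mostly in q21, thus do not show in the median of that segment. The spread within an arm was smaller on the p arm, with an interquartile range over genes of 0.71 untreated and 0.51 treated, than on the q arm, at 1.43 and 1.26.

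Every KO library lay below every WT library in both treatments for 14 of 19 p arm genes and 12 of 32 q arm genes, against 11.2% of all genes tested, and above in both for 0 of 19 and 5 of 32, against 13.2%. Since the genes were chosen on this contrast, these counts describe the choice.

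NAPG was the lowest of the listed genes, and it is described first with other p arm genes of membrane traffic. It encodes the gamma form of SNAP and helps take apart SNARE complexes after fusion, and it was at 86.9, 83.2 and 82.7 CPM in untreated WT and 20.8, 19.9 and 21.03 CPM in untreated KO. Under butyrate it was at 70.5, 77.6 and 80.6 CPM in WT and 17.96, 19.5 and 19.98 CPM in KO. The 6 KO libraries lay close together and far below the 6 WT libraries, and the fold changes were -2.03 (SE 0.15) and -1.99 (SE 0.15), or 4.10-fold and 3.98-fold lower. VAPA, which tethers the endoplasmic reticulum to other organelles, was at 666, 525 and 495 CPM in untreated WT against 198, 196 and 178 CPM in KO. Treated WT held 683, 339.9 and 262 CPM of VAPA and treated KO 244, 159.8 and 125 CPM. WT replicate 1 stood well above the other WT libraries under butyrate, but no KO library reached any WT library, and the fold changes were -1.56 (SE 0.34) and -1.28 (SE 0.34), the latter -0.78 without that library. The small GTPases RAB12 and RAB31, which act in endosomal transport, stood at -1.06 untreated and -1.18 treated and at -1.36 untreated and -1.08 treated.

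Among p arm genes of signalling, TGIF1, a homeodomain corepressor that restrains SMAD-driven transcription, was at 71.4, 49.8 and 45.6 CPM in untreated WT and 17.98, 21.9 and 19.7 CPM in untreated KO. With butyrate the WT libraries held 64.02, 30.6 and 30.7 CPM and the KO libraries 23.5, 9.58 and 15.1 CPM. The genotypes did not overlap in either treatment, and the fold changes were -1.48 (SE 0.36) and -1.38 (SE 0.36). TWSG1, a secreted protein that binds bone morphogenetic proteins, stood at -1.18 untreated and -0.79 treated, and the SRC-family kinase YES1 at -1.43 untreated and -1.18 treated. PTPN2, a phosphatase that switches off JAK and STAT proteins, differed less, at -0.52 untreated and -0.51 treated. PPP4R1, a regulatory subunit of protein phosphatase 4, stood at -1.04 untreated and -1.19 treated, with overlapping genotypes in treated cells. The treated values were -0.67 for PPP4R1 and -0.33 for PTPN2 with replicate 1 of treated WT left out.

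Among genes of the cytoskeleton, the nuclear pore and chromatin, MYL12A and MYL12B encode nearly identical regulatory light chains of nonmuscle myosin and lie next to each other, so counts may be split between them in a way these data do not show. MYL12A was at 145, 203 and 121 CPM in untreated WT and 42.4, 58.97 and 77.8 CPM in untreated KO, and at 117, 138 and 118 CPM and 41.2, 46.4 and 70.7 CPM in treated WT and KO. MYL12B was at 235, 249 and 191 CPM in untreated WT, 145, 119.7 and 129 CPM in untreated KO, 214, 266 and 213 CPM in treated WT and 127, 122 and 122 CPM in treated KO. Both were lower in every KO library, MYL12A by more (-1.39 untreated and -1.23 treated) than MYL12B (-0.78 untreated and -0.90 treated). SEH1L, a scaffold protein of the nuclear pore and of the GATOR2 complex, stood at -1.08 untreated and -1.02 treated. SMCHD1, an SMC-like protein of silent chromatin, stood at -0.51 untreated and -0.76 treated, and the zinc finger factor ZBTB14 at -0.45 untreated and -0.43 treated, the latter with overlapping libraries in both treatments. The treated ZBTB14 value was -0.09 without replicate 3 and -0.67 without replicate 1 of treated KO.

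Metabolic genes of the p arm include TYMS, which makes thymidylate for DNA synthesis, and ENOSF1, whose 3' end overlaps that of TYMS on the other strand over 662986 to 673578 of chromosome 18. Whether the counting used strand is not given in the sources used here, so reads of the overlap may fall to either gene. TYMS was at 33.6, 26.6 and 22.1 CPM in untreated WT and 16.4, 20.02 and 10.1 CPM in untreated KO, a difference of -0.82 (SE 0.55). In treated cells it was at 24.1, 6.87 and 6.13 CPM in WT and 17.3, 8.26 and 4.90 CPM in KO. The treated value of -0.28 (SE 0.55) rested on WT replicate 1, and without that library it was 0.63. It also lay above 0 without replicate 3 of treated KO, so TYMS has no settled direction under butyrate. ENOSF1 was at 92.8, 105 and 70.1 CPM in untreated WT and 63.9, 66.3 and 49.4 CPM in untreated KO, and at 73.3, 57.8 and 43.3 CPM and 36.1, 20.7 and 31.4 CPM in treated WT and KO. Its libraries did not overlap between genotypes, and it stood at -0.58 untreated and -0.98 treated. LPIN2, a phosphatidate phosphatase of lipid synthesis, stood at -0.74 untreated and -0.61 treated, with overlapping treated libraries and a treated value of -0.27 without WT replicate 1. AFG3L2, a protease of the inner mitochondrial membrane, stood at -1.27 untreated and -1.32 treated.

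The change of level between the arms was examined at their nearest listed genes. CEP192, a scaffold for centrosome maturation that ends at 13125036, was at 91.3, 92.3 and 122 CPM in untreated WT and 94.6, 91.7 and 84.3 CPM in untreated KO, with overlapping libraries and a difference of -0.18 (SE 0.17). Under butyrate it was at 117, 97.3 and 100.5 CPM in WT and 75.97, 62.8 and 62.4 CPM in KO, with no overlap and a difference of -0.65 (SE 0.18). CEP192 thus had the smallest untreated difference of the 19 p arm genes, and it was -0.05 without replicate 3 of untreated WT. ROCK1, a kinase that drives actomyosin contraction and starts at 20946906 on the q arm, was at 63.9, 79.6 and 87.8 CPM in untreated WT and 73.6, 94.8 and 71.4 CPM in untreated KO, and at 62.7, 64.8 and 76.97 CPM and 75.2, 66.7 and 51.9 CPM in treated WT and KO. Its libraries overlapped in both treatments, its differences were 0.05 (SE 0.20) and -0.08 (SE 0.20), and their sign turned when single libraries were left out.

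**Figure D3:**
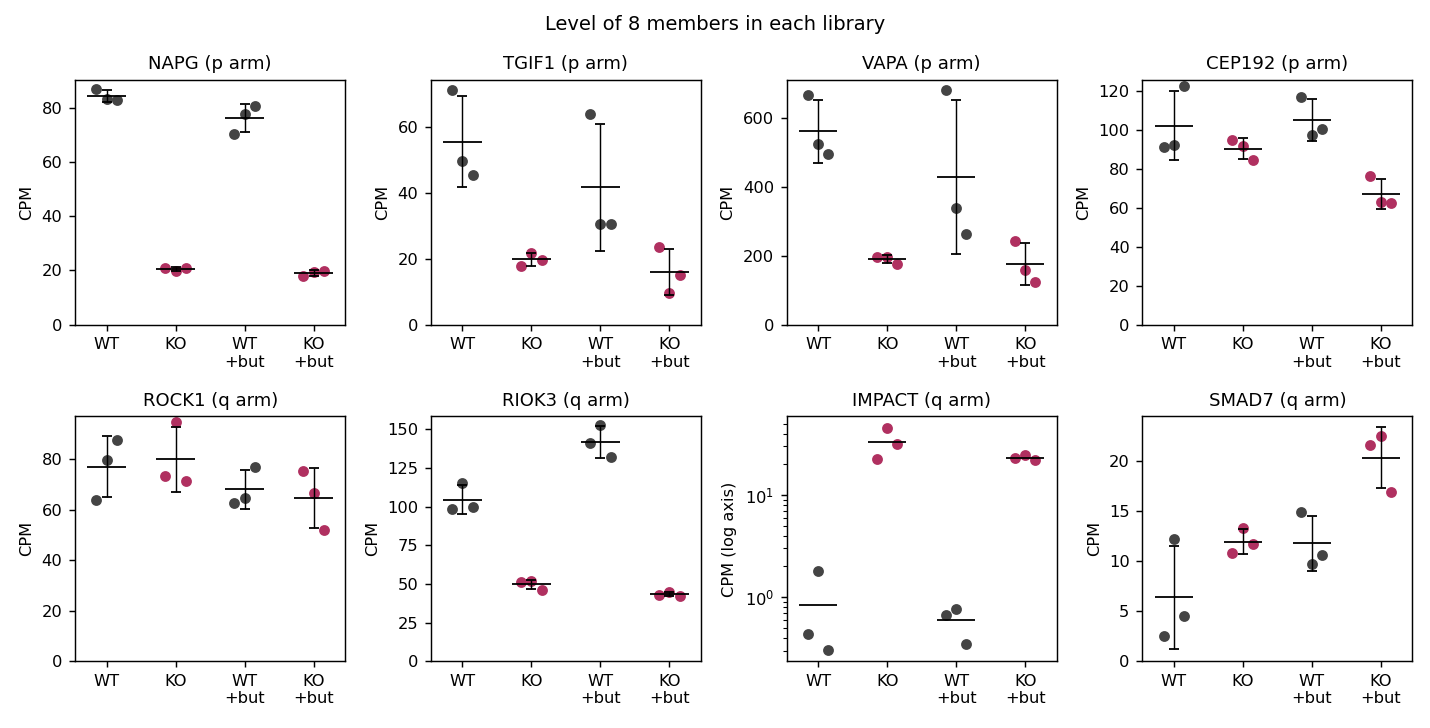
Level in CPM (y axis) of 8 genes in each library (points) of the untreated and butyrate-treated (+but) WT and KO groups (x axis). Horizontal lines are group means and error bars the SD (n = 3), except for IMPACT, drawn on a log axis with means only. NAPG, TGIF1, VAPA and RIOK3 are lower in every KO library, CEP192 in the treated ones only, ROCK1 overlaps, and IMPACT is higher in every KO library.

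The q arm held both the highest and some of the lowest of the listed genes. IMPACT, which binds GCN1 and thereby restrains the stress kinase GCN2, was at 0.433, 1.81 and 0.303 CPM in untreated WT and 22.6, 45.8 and 31.9 CPM in untreated KO. With butyrate it was at 0.674, 0.768 and 0.350 CPM in WT and 22.9, 24.8 and 22.1 CPM in KO. WT libraries held 8 to 39 counts of IMPACT and KO libraries 422 to 963, so the gene was scarce in WT only. The fold changes were 5.31 (SE 0.60) and 5.30 (SE 0.61), and the untreated value ranged from 4.86 to 6.52 as single libraries were left out, highest without replicate 2 of untreated WT. IMPACT lies at 24426670 to 24453531, beside the oxysterol-binding gene OSBPL1A, which had 0 to 3 counts in every library. SETBP1, a nuclear protein that binds the oncoprotein SET and is mutated in myeloid neoplasms, had 3 to 12 counts in WT libraries and 0 in all KO libraries, too few to be tested.

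RIOK3 was the lowest listed q arm gene in treated cells, while in untreated cells CNDP2, TIMM21, MBD1 and LMAN1 lay lower. This atypical kinase is known for its rise in late erythroid cells, and it was at 98.2, 115 and 99.7 CPM in untreated WT and 51.3, 51.7 and 46.1 CPM in untreated KO. Under butyrate it was at 141, 153 and 132 CPM in WT and 43.2, 44.9 and 42.6 CPM in KO. The genotypes stood wide apart in both treatments, with fold changes of -1.07 (SE 0.15) and -1.70 (SE 0.15). Its neighbour RBBP8, which starts the resection of broken DNA ends, stood at -1.02 untreated and -0.86 treated, with overlapping treated libraries and a treated value of -0.39 without WT replicate 1. ESCO1, which acetylates cohesin, lies between ROCK1 and RBBP8 and went the other way, at 37.05, 40.04 and 47.98 CPM in untreated WT against 61.01, 60.1 and 61.6 CPM in untreated KO and at 42.5, 29.5 and 31.4 CPM against 59.9, 53.6 and 51.4 CPM under butyrate. Every KO library of ESCO1 lay above every WT library (0.55 untreated and 0.67 treated). Lower and higher genes thus lay side by side within q11-q12.

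The SMAD genes of q21 lay above 0 in both genotype comparisons. SMAD2, a receptor-activated SMAD of TGF-beta and activin signalling, was at 55.9, 48.6 and 42.4 CPM in untreated WT, 83.4, 71.6 and 61.7 CPM in untreated KO, 70.97, 47.6 and 47.9 CPM in treated WT and 76.5, 64.3 and 61.8 CPM in treated KO. SMAD4, the common partner of the activated SMADs, was at 48.6, 49.6 and 55.9 CPM in untreated WT, 62.6, 71.5 and 63.4 CPM in untreated KO, 47.5, 40.2 and 44.3 CPM in treated WT and 60.03, 52.5 and 49.3 CPM in treated KO. SMAD7, which feeds back to block the receptors, was at 2.49, 12.2 and 4.51 CPM in untreated WT, 10.8, 13.3 and 11.7 CPM in untreated KO, 14.9, 9.73 and 10.6 CPM in treated WT and 21.5, 22.5 and 16.9 CPM in treated KO. SMAD4 did not overlap between genotypes in either treatment, SMAD2 overlapped in treated cells, and SMAD7 overlapped in untreated cells through WT replicate 2. The fold changes were 0.56 untreated and 0.28 treated for SMAD2, 0.36 untreated and 0.29 treated for SMAD4 and 0.90 untreated and 0.79 treated for SMAD7, and the untreated SMAD7 value ranged from 0.52 without WT replicate 1 to 1.76 without WT replicate 2. The treated SMAD2 value ranged from 0.17 without replicate 3 to 0.49 without replicate 1 of treated WT.

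Other q arm genes above 0 in both treatments were PIK3C3, MALT1, POLI and TXNL4A. PIK3C3, the lipid kinase VPS34 of autophagy and endosomes, was at 43.1, 42.9 and 40.4 CPM in untreated WT, 59.5, 62.8 and 66.1 CPM in untreated KO, 23.95, 37.1 and 37.4 CPM in treated WT and 49.6, 40.6 and 53.8 CPM in treated KO. TXNL4A, a component of the U5 spliceosomal particle at the far end of the list, was at 72.8, 53.4 and 48.99 CPM in untreated WT, 108, 80.5 and 72.9 CPM in untreated KO, 80.9, 67.3 and 52.4 CPM in treated WT and 106, 94.8 and 92.5 CPM in treated KO. Both were higher in KO without overlap, at 0.58 untreated and 0.55 treated for PIK3C3 and 0.58 untreated and 0.55 treated for TXNL4A. MALT1, a paracaspase of NF-kappaB signalling, was at 10.2, 18.4 and 18.2 CPM in untreated WT, 30.2, 19.98 and 17.8 CPM in untreated KO, 5.44, 13.8 and 17.8 CPM in treated WT and 21.04, 20.4 and 23.8 CPM in treated KO. POLI, a DNA polymerase that copies past lesions, was at 4.39, 10.8 and 11.8 CPM in untreated WT, 15.3, 17.9 and 15.7 CPM in untreated KO, 4.35, 11.8 and 11.7 CPM in treated WT and 6.75, 10.5 and 15.2 CPM in treated KO. MALT1 overlapped in untreated cells and POLI in treated cells. The untreated MALT1 value of 0.54 became 0.03 without replicate 1 of both genotypes and both treatments, and the treated POLI value of 0.23 ranged from -0.12 without replicate 1 of treated WT to 0.48 without replicate 1 of treated KO. The treated values of MALT1 and PIK3C3 were 0.45 and 0.35 with replicate 1 of treated WT left out. Untreated, MALT1 and POLI stood at 0.31 and 0.53 with WT replicate 1 left out, and MALT1 at 0.28 with KO replicate 1 left out.

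The remaining q arm genes lay mostly below 0. In q21 the methyl-CpG-binding protein gene MBD1 stood at -1.10 untreated and -1.11 treated, the thioredoxin-like TXNL1 at -0.9999 untreated and -1.29 treated, and WDR7, a partner of the vacuolar proton pump, at -0.86 untreated and -1.08 treated. LMAN1, a cargo receptor between endoplasmic reticulum and Golgi, stood at -1.07 untreated and -1.03 treated, KDSR, an enzyme of ceramide synthesis, at -0.91 untreated and -0.86 treated, and VPS4B, an ATPase of the ESCRT pathway, at -0.52 untreated and -0.72 treated. None of these 6 genes overlapped between genotypes in either treatment, and the treated TXNL1 value was -0.77 without WT replicate 1. Nearer the end of the arm the mitochondrial import factor TIMM21 stood at -1.18 untreated and -1.10 treated, the dipeptidase CNDP2 at -1.19 untreated and -1.18 treated and the cytokine-signalling suppressor SOCS6 at -1.06 untreated and -0.80 treated. CTDP1, a phosphatase of the RNA polymerase II tail, stood at -0.53 untreated and -1.13 treated, and the zinc finger genes ZNF236 and ZNF407 at -0.44 untreated and -0.83 treated and at -0.29 untreated and -1.02 treated. Without replicate 1 of treated WT the treated values were -0.75 for CTDP1 and -0.18 for ZNF407, whose libraries overlapped in both treatments. The untreated ZNF407 value ranged from -0.75 without KO replicate 1 to -0.08 without WT replicate 1, and the untreated CTDP1 value was -0.35 without WT replicate 3. The other members stood nearer 0: TRAPPC8 of the TRAPP tethering complex at -0.42 untreated and -0.47 treated, SS18 of the BAF chromatin remodeller at -0.44 untreated and -0.36 treated, the SUMO ligase PIAS2 at -0.38 untreated and -0.29 treated, HAUS1 of augmin at -0.29 untreated and -0.50 treated, ELP2 of Elongator at -0.27 untreated and -0.61 treated, the zinc transporter SLC39A6 at -0.01 untreated and -0.36 treated and the mitochondrial malic enzyme ME2 at 0.28 untreated and -0.04 treated. Of these 7, only TRAPPC8 did not overlap between genotypes in either treatment, and SS18, ELP2, SLC39A6 and ME2 overlapped in both. In treated cells SS18 was at -0.09 and PIAS2 at -0.07 with WT replicate 1 left out. ELP2 was at -0.38 treated without WT replicate 3, HAUS1 at -0.13 untreated without WT replicate 2, SLC39A6 at -0.23 treated without KO replicate 3 and ME2 at 0.12 untreated without WT replicate 1. Counting every listed gene, leaving out replicate 1 of treated WT moved 17 of the 51 treated values by over 1.5 times or across 0, where any other single library moved at most 8.

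RTTN was the member whose 2 genotype values differed most. RTTN, which builds centrioles, was at 18.8, 28.5 and 20.6 CPM in untreated WT and 34.8, 28.7 and 32.1 CPM in untreated KO, so that every untreated KO library lay above the WT libraries (0.49 (SE 0.28)). Under butyrate it was at 19.1, 26.1 and 32.3 CPM in WT and 9.97, 16.9 and 17.5 CPM in KO, so that every treated KO library lay below them (-0.80 (SE 0.28)). ROCK1 and ME2, both near 0, were the other 2 of 51 genes with opposite signs, and 48 of 51 kept theirs. Across the 51 genes the untreated and treated differences, which come from different libraries, correlated with Pearson's r = 0.955 and Spearman's rho = 0.878, and with 0.891 and 0.871 once IMPACT was left out. Over all genes tested r was 0.883 and rho 0.805.

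Genes of chromosome 18 outside the list had a lower median on the p arm than on the q arm too. They are part of the chromosome median that led to the choice, so their values are a description and no independent support. The 42 tested genes of the p arm had medians of -1.21 untreated and -1.27 treated, with 40 of 42 below 0 in each. The 96 tested genes of the q arm had -0.23 and -0.32, with 57 and 63 below 0. Both sets hold genes that passed the filter through a single genotype. The 20 p arm genes with at least 50 counts in every library had medians of -1.06 and -1.03, near those of the listed genes, all below 0. The 53 q arm genes of that kind had -0.26 and -0.41, with 36 and 41 below 0. By the mean of both differences, among genes with at least 50 counts in every library, SPIRE1, an actin nucleator of the p arm, was the lowest. It was at 42.1 ± 7.36 CPM (SD, n = 3) in untreated WT and 8.73 ± 1.64 CPM in untreated KO (-2.27 untreated and -2.14 treated). The next were MOCOS, which sulfurates the molybdenum cofactor (-2.40 untreated and -1.40 treated), and MAPRE2, a microtubule end-binding protein (-1.88 untreated and -1.74 treated), both of the q arm. The highest were the transcription factor TCF4 (1.64 untreated and 1.73 treated) and the desmosomal cadherins DSG2 (0.96 untreated and 0.94 treated) and DSC2 (0.90 untreated and 0.88 treated), all of the q arm. Chromosome 18 as a whole, with 189 tested genes, had medians of -0.52 and -0.61. It was the second lowest of 23 chromosomes in both treatments, after chromosome 7 at -0.78 and -0.86, and chromosome 13 was the highest at 0.94 and 0.83. The listed p arm thus lay below the median of every whole chromosome, but no other chromosome was split by arm. The listed q arm untreated was close to chromosome 21, at -0.33, while treated it was at -0.56 and chromosome 21 at -0.36.

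**Figure D4:**
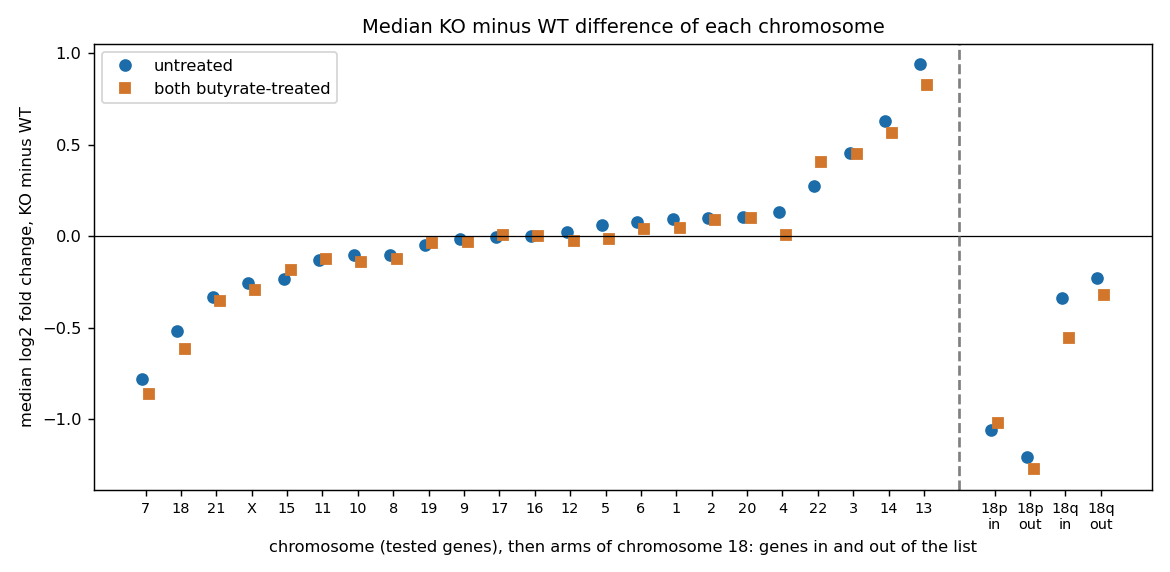
Median log2 fold change of KO minus WT (y axis) over the tested genes of each chromosome (x axis, sorted by the untreated value), and right of the dashed line over the arms of chromosome 18 for genes in and out of the list. Circles are untreated and squares butyrate-treated cells. Both p arm sets lie near or below -1, lower than chromosome 7 as a whole, and both q arm sets between -0.56 and -0.23.

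The response to butyrate was not the contrast that chose the genes, although it rests on the same 12 libraries, and it was tested in each genotype and between them. In edgeR's quasi-likelihood test without a block for the replicate number, none of the 51 genes passed an adjusted p of 0.05 in either genotype. Of all genes, 2.35% were called in WT and 3.4% in KO. Nor did any pass for the interaction, which sets the response of KO against the response of WT and called 0% of all genes. A fit with the replicate number as a block called 4 members in each genotype, where 8.61% of all genes in WT and 11.7% in KO were called. At an unadjusted p under 0.05 there were 6, 6 and 2 of the 51 genes, against 18%, 19.8% and 4.16% of all genes tested. With the replicate number as a block these were 19, 16 and 2 of 51, against 25.1%, 28.6% and 7.05%. DESeq2 called 2 in WT, 3 in KO and 0 for the interaction, against 8.42%, 9.73% and 0.544% of all genes. The members leaned downwards under butyrate, with medians of -0.33 on the p arm and -0.18 on the q arm in WT and of -0.33 and -0.30 in KO, where the median over all genes was 0.02 and 0.00. Below 0 were 34 of 51 in WT and 42 of 51 in KO, against 47.5% and 49.3% of all genes. Their partners on other chromosomes, described last, had medians of -0.15 and -0.18, with 57 and 62 of 96 below 0, and the 20 unlisted p arm genes with at least 50 counts in every library -0.10 and -0.16. The arm medians lay closer together under butyrate than between genotypes.

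Values of single members under butyrate came closest to the threshold for RTTN and ENOSF1 in KO. RTTN went from 31.9 ± 3.06 CPM (SD, n = 3) to 14.8 ± 4.21 CPM in KO (-1.10 (SE 0.28), adjusted p = 0.0512, edgeR) and from 22.7 ± 5.13 to 25.8 ± 6.58 CPM in WT (0.19 (SE 0.28), adjusted p = 0.780, edgeR). ENOSF1 was at 59.9 ± 9.15 CPM in untreated and 29.4 ± 7.93 CPM in treated KO (-1.03 (SE 0.26), adjusted p = 0.0527, edgeR) and stood at -0.62 (SE 0.26) in WT. In KO neither gene overlapped between treated and untreated libraries. The difference between genotypes was -1.29 (SE 0.39) for RTTN and -0.40 (SE 0.37) for ENOSF1, with adjusted p of 0.727 and 1.000 (edgeR). RIOK3 was higher in every treated WT library (0.44 (SE 0.15), adjusted p = 0.147, edgeR) and slightly lower in every treated KO library (-0.19 (SE 0.15)), and its interaction was -0.63 (SE 0.21) with an adjusted p of 0.852 (edgeR). SMAD7 had the largest positive values, 0.88 (SE 0.45) in WT and 0.77 (SE 0.45) in KO, with adjusted p of 0.332 and 0.370 (edgeR).

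With the replicate number as a block, which takes out what libraries of the same number share, edgeR called 4 members in each genotype, all lower with butyrate, where 8.61% of all genes in WT and 11.7% in KO were called. By edgeR with the block, the WT calls were TYMS (-1.38, adjusted p = 0.0313), YES1 (-0.57, 0.0493), SEH1L (-0.57, 0.0354) and LMAN1 (-0.61, 0.0424). By the same edgeR fit, the KO calls were ENOSF1 (-1.02, adjusted p = 0.0139), SEH1L (-0.50, 0.0497), HAUS1 (-0.72, 0.0392) and RTTN (-1.16, 0.0119). SEH1L was the only gene of both lists. The DESeq2 calls were RIOK3, higher, and KDSR, lower, in WT, and ENOSF1, HAUS1 and RTTN, all lower, in KO. Without replicate 1 of treated WT, the library with most RNA28SN5 reads at 5.63%, edgeR called TYMS, AFG3L2 and RBBP8 lower in WT and ENOSF1 and RTTN lower in KO, where 7.63% and 6.38% of all genes were called. Without replicate 1 of all groups it called 5 in WT and 2 in KO, against 11.4% and 13.1% of all genes, and without replicate 1 of treated KO 0 in WT and 1 in KO, against 2.62% and 5.09%.

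**Figure D5:**
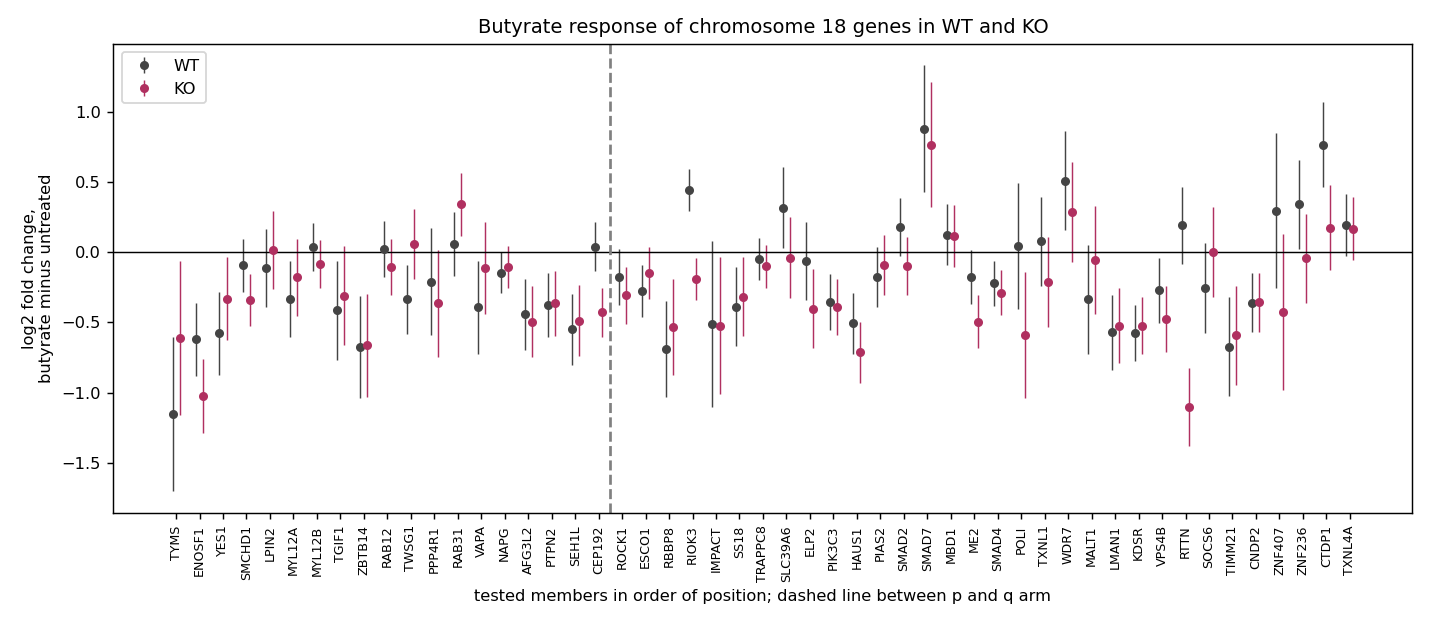
Log2 fold change of butyrate-treated minus untreated cells (y axis) for the 51 tested genes in order of position (x axis), in WT (grey) and KO (red). Points are fitted values with standard errors, and the dashed line parts the arms. Most points lie a little below 0 on both arms, with RTTN the gene whose values in WT and KO lie farthest apart.

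Genes on other chromosomes whose products work with the members, or are their paralogs, did not enter the median of chromosome 18 and were tested between genotypes. Their list was drawn up with earlier results of these data known, so the tests are not fully independent of it. Of 97 listed, 96 were tested, and their medians of 0.04 and 0.04 were near those of all genes. In untreated KO 6 of 96 fell and 8 rose, where 10.9% and 11.7% of all genes were called, and in treated KO 6 fell and 4 rose, where 8.89% and 10.1% were. The partners were thus called no more often than genes at large. The replicate block called 24 and 18 of them, against 33% and 29.2% of all genes. Single libraries mattered for these counts, and for the share of all genes called, which was 22.6% untreated and 19% treated in the main fit. The 14 calls in untreated cells became 6 without WT replicate 1, where 17.2% of all genes were called. They became 9 without WT replicate 3, KO replicate 1 or KO replicate 3, where 15.3%, 16.4% and 17.4% were. In treated cells the 10 calls became 4 without WT replicate 2 and 5 without KO replicate 3, against 12.3% and 14.7% of all genes. They became 6 without WT replicate 3 or KO replicate 1, against 14% and 15.3%. Leaving out number 2 or 3 of every group gave 2 and 6 untreated and 1 and 2 treated, and these fits called 6.29% and 9.68% of all genes untreated and 4.23% and 6.95% treated.

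Of the partners counted, SMAD1 and TGFBR2 passed the filter on low counts through a single genotype, so their values are given without a test. SMAD1, which carries bone morphogenetic protein signals and joins SMAD4, was at 0.217, 0.742 and 0.269 CPM in untreated WT and 26.3, 25.1 and 23.7 CPM in untreated KO (5.92 (SE 0.60)), and at 0.467, 0.0854 and 0.159 CPM and 24.4, 12.2 and 11.9 CPM in treated WT and KO (6.13 (SE 0.62)). TGFBR2, a TGF-beta receptor named here after its values were seen, was at 2.33, 3.76 and 2.72 CPM in untreated WT and 0.933, 1.96 and 2.32 CPM in treated WT, and had no counts in untreated KO and at most 0.0967 CPM in treated KO. Among the paralogs, the YES1 relative SRC fell in untreated KO (-2.35 (SE 0.50), adjusted p = 0.00463, edgeR), from 30.5 ± 6.88 to 5.95 ± 4.41 CPM (SD, n = 3), and in treated KO it stood at -0.58 (SE 0.47) with an adjusted p of 0.449. Of the augmin subunits around HAUS1, HAUS7 fell in both (-1.71 (SE 0.33) and -1.12 (SE 0.32), adjusted p = 0.00233 and 0.0281, edgeR). TIMM17B, an import channel subunit near TIMM21, fell in both too (-0.93 (SE 0.23) and -0.77 (SE 0.23), adjusted p = 0.0107 and 0.0298, edgeR). HAUS7 and TIMM17B lie on chromosome X, whose median was -0.26 and -0.30.

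ATG14, which steers PIK3C3 to autophagy, rose in untreated KO (1.09 (SE 0.30), adjusted p = 0.0190, edgeR), and so did SOCS4, a relative of SOCS6 (1.08 (SE 0.23), adjusted p = 0.00540, edgeR). Both lie on chromosome 14, whose median was 0.63 untreated and 0.57 treated, and in treated KO they stood at 0.60 and 0.60, short of the threshold. In treated KO, TRAPPC5, which shares the TRAPP complex with TRAPPC8, rose (0.98 (SE 0.21), adjusted p = 0.00705, edgeR). ME1, the cytosolic relative of ME2, rose as well (1.09 (SE 0.35), adjusted p = 0.0479, edgeR), a call lost in 16 of 23 alternatives and 0.50 without replicate 2 of treated KO. TK1, which salvages thymidine beside the TYMS route, fell (-0.86 (SE 0.22), adjusted p = 0.0148, edgeR). The HAUS7 call in treated cells was lost in 8 of 23 alternatives, among them those without replicate 2 or 3 of treated WT or replicate 1 or 3 of treated KO, and the TIMM17B call in 7 of 23, among them those without replicate 2 of treated WT or replicate 1 or 2 of treated KO. The TK1 call was lost in 4 of 23 (without replicate 2 of treated WT or of treated KO, or without number 2 or 3 of every group), and the calls of SOCS4 and TRAPPC5 in 2 of 23 each (without number 2 or 3). The calls of SRC, HAUS7 and TIMM17B in untreated cells held in 22 of 23, failing with number 2 of every group left out. The ATG14 call was lost in 6 of 23, with replicate 1 or 2 of untreated WT, replicate 1 of untreated KO or any number left out.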

How the data were processed

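The authors deposited whole-number read counts per gene symbol for 12 libraries in a single table, and 0 of its sample columns were left unused. Per the submitters' processing notes, hg38, FastQC 0.12.1 and STAR 2.7.11b were used, with no role or order stated, and the counting tool, annotation and use of strand are not given in the sources used here. Groups and replicate numbers come from the sample titles.

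Counts were analysed in R 4.3.3 with edgeR 4.0.16: filterByExpr with a minimum count of 10, TMM scaling, a mean for each of the 4 groups and quasi-likelihood F-tests, with Benjamini-Hochberg adjustment over all 15805 genes tested and a threshold of 0.05. The biological coefficient of variation was 0.384. DESeq2 1.42.0, other filters and scalings, a replicate block and left-out libraries served as alternatives. The fit was also run on simulated data, the outcome of which is not given here. The limit of detection was 3 counts, or 0.0953 to 0.162 CPM, which covers counting error only. The smallest two-sided exact permutation p for 3 libraries against 3 would be 0.1. No libraries of a group were alike within sampling noise, with a chi-square per degree of freedom of at least 38.9.

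Positions and promoters are from RefSeq (GRCh38.p14), which held 95.5% of the symbols. The arms part at ROCK1, the first listed gene of the q arm. Libraries with the same replicate number deviated together from their group means (correlations over genes of 0.147 to 0.595, against at most 0.343 for other pairs), so the numbers were taken to pair the libraries. The main fit holds group means only, so its standard errors and p-values leave this pairing out. The fit with the replicate block takes it in. The listed genes and the lists of partners and markers were chosen with earlier results of these data known. Any listed gene could be named. Values in every library are given for CEP192 and ROCK1, the 4 lowest and 4 highest genes by the mean of both genotype differences, those above 0 in both, the SMAD genes and the pairs that may share reads. Other genes of the chromosome were the 3 lowest and 3 highest with at least 50 counts in every library, and of the partners the 3 largest called rises and the 3 largest called falls, if no library of the higher group held fewer than 50 counts.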

Additional observations from a re-analysis of the deposited data

How the results depend on the processing

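Over the alternatives, both arm medians stayed below 0 in both genotype comparisons, and the p arm stayed the lower. The untreated q arm median of -0.34 was -0.37 with DESeq2 size factors or the DESeq2 Wald test, -0.39 with no filter, -0.41 with at least 10 counts in every library and -0.39 with the replicate block. Leaving out libraries moved it from -0.42 to -0.34, the treated q arm median from -0.65 to -0.46, and the p arm medians from -1.15 to -0.90 untreated and from -1.18 to -0.79 treated. The members called under butyrate were 0 to 5 in WT and 0 to 2 in KO as libraries were left out. The same fits called 0% to 11.4% of all genes in WT and 0% to 13.1% in KO. DESeq2 called 2 in WT and 3 in KO, and the block 4 in each, against the shares of all genes given above. No filter called 2 in KO, where 2.87% of all genes were called, and the interaction called 0 in all 22 alternatives. The partners called ranged from 2 to 19 untreated and from 1 to 14 treated as libraries were left out. Those fits called 6.29% to 26.5% of all genes untreated and 4.23% to 24.7% treated. The block gave 24 and 18, against 33% and 29.2% of all genes. A fit of only the 2 groups compared gave 4 in treated cells, and its share over all genes is not given here. The cause of these shifts was not tested. Scaling by library size alone moved the median of all genes under butyrate in KO from 0 to 0.12, and changed no count of members called. With 3 libraries a group, small differences of single members may have been missed, and the smallest size that could be called is not given here.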

Other observations

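Some genes of chromosome 18 outside the list were detected in a single genotype, and these were chosen after their values were seen. The share of such genes over all genes tested was not counted, so their number is no result about chromosome 18. In 4 genes no KO library held a count. EPB41L3, a membrane skeleton protein of the p arm, was at 9.10, 8.12 and 8.07 CPM in untreated WT and 2.18, 13.1 and 13.7 CPM in treated WT, at least 62.7-fold and 86.8-fold higher than the mean limit of 3 counts per KO library. PIEZO2, a mechanically gated channel of the p arm, was at 2.11, 1.86 and 3.23 CPM and 1.71, 4.44 and 4.35 CPM, at least 17.8-fold and 31.5-fold higher. On the q arm the neighbours RAB27B, a GTPase of secretory vesicles, and CCDC68 lie at 54717857 to 54895516 and 54901509 to 54959461, past POLI, which lay above 0 in both genotype comparisons. RAB27B was at 8.45, 2.04 and 9.51 CPM in untreated WT and 9.02, 3.16 and 3.18 CPM in treated WT, and CCDC68 at 4.55, 3.16 and 7.16 CPM and 6.84, 6.53 and 6.17 CPM.

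The opposite pattern was found in 3 genes of the q arm, with at most 3 counts in any WT library. KCTD1, a transcriptional repressor, was at 4.07, 4.76 and 3.01 CPM in untreated KO and 1.98, 3.77 and 4.19 CPM in treated KO, at least 29.4-fold and 26.2-fold higher than the limit in WT. The long noncoding RNAs MIR924HG and KC6 were at 5.08, 8.18 and 4.75 CPM and 1.61, 2.52 and 4.98 CPM in untreated KO and 4.32, 2.81 and 3.42 CPM and 1.19, 1.06 and 4.12 CPM in treated KO. All 7 genes were expressed at low levels and passed the filter through a single genotype. They were picked for differing between genotypes beyond the median of either arm, which on the q arm they did in both directions.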
